A study of Mus musculus with 26 samples.

Results

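Somatosensory cluster 3 is the smallest of the 3 clusters into which the authors' cell table divides mouse thalamic neurons that project to somatosensory cortical areas. Its members were taken from that table by their cluster name alone. They were 60 of the 285 somatosensory cells, and of 1972 cells in all. Cluster 1 held 90 somatosensory cells, cluster 2 held 132, and 3 cells carried the authors' flag and had no cluster. Over the whole collection, neurons from auditory, motor, prefrontal, somatosensory and visual systems had been traced back from cortex with a retrograde label, picked by hand from microdissected slices and made into 3' libraries in which a random tag on each captured RNA molecule lets copies be counted once (UMIs). The 26 plates are the deposited samples. The slices had been kept with pronases and blockers of neuronal activity, a treatment that all groups compared here share. The sources used here do not give strain, genotype or the labelling agent.

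The somatosensory cells came from 3 mice tabulated as male. Replicates 1 and 2 had a tabulated age of 64 and replicate 3 of 78, with no unit stated. Each was on plates of its own, 2, 2 and 6 in that order, and all 3 were sequenced in batch 2. The ages and sexes of animals of the other systems were not compared here and were no term in any fit. Comparisons between systems may therefore hold effects of either. Thalamic relay neurons release glutamate and carry sensory, motor or associative signals to cortex. Tnnt1, a troponin subunit, is known as a marker of the sensory relay type in mouse thalamus, and Necab1, a neuronal calcium-binding protein with EF hands, as a marker of neurons away from the cores of the relay nuclei. Calb1 encodes calbindin, a calcium buffer that is a classic marker of thalamic matrix neurons, whereas Pvalb, parvalbumin, marks core relay cells in many mammals.

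The cluster was present in every animal and on every one of the 10 somatosensory plates, in unequal shares. It made up 19 of 75 cells in replicate 1 (25.3%, exact binomial 95% interval 15.99 to 36.7%), 3 of 69 in replicate 2 (4.35%, 0.906 to 12.2%) and 38 of 141 in replicate 3 (27.0%, 19.8 to 35.1%). Replicate 2 stood below the other 2 animals, and its interval did not meet theirs, although replicates 1 and 2 were of the same age and sort date. The mean share over animals was 18.9 ± 12.6% (SD, n = 3), and over all cells 21.1% (16.5 to 26.3%). The intervals cover counting error only, and the share is one of cells that were picked by hand.

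**Figure D1:**
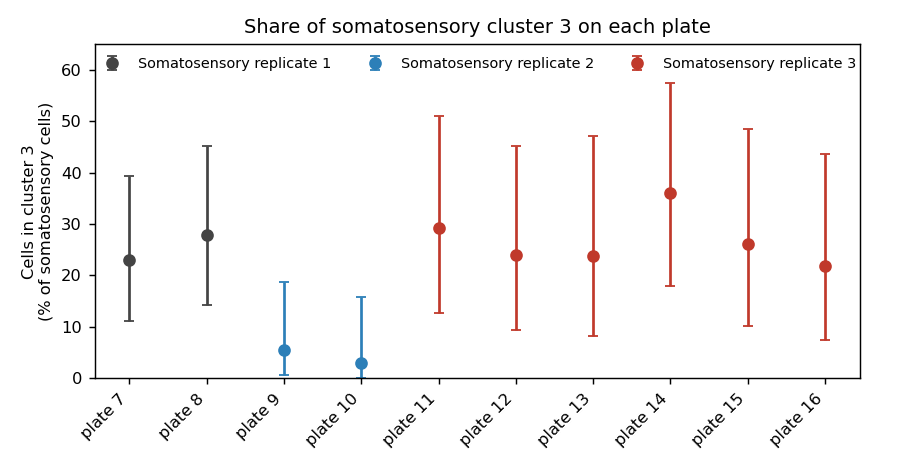
Share of somatosensory cells that belong to cluster 3 on each of the 10 plates (y axis, percent), coloured by animal, with exact binomial 95% intervals as bars. Both plates of replicate 2 (3.03 and 5.56%) lie below the 8 plates of the other 2 animals (21.7 to 36.0%).

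A cell of cluster 3 ranged from 25638 to 315923 UMIs, with a median of 95114.5, and from 2784 to 7797 detected genes. Per animal, the median cell had 146525 UMIs in cluster 3 against 110636 in clusters 1 and 2 in replicate 1, 81670 against 141870.5 in replicate 2 and 77614 against 83955 in replicate 3. The cluster was deeper in 1 animal and shallower in 2 (exact paired permutation test of the animal differences, two-sided p = 0.75, and 0.25 is the smallest p that 3 pairs allow). Its summed counts were 2899643, 455152 and 3390714 UMIs in replicates 1 to 3, or 6745509 in all, against 27864038 for clusters 1 and 2. The sum of replicate 2 rested on 3 cells. The median spike-in share was lower in cluster 3 in all 3 animals. It was 4.60 against 6.51% in replicate 1, 3.04 against 3.72% in replicate 2 and 3.84 against 3.87% in replicate 3 (same permutation test, p = 0.25). Median detected genes and mitochondrial shares differed in direction between animals. The bar code sequences of all 60 cells also occurred on another plate, since 372 of the 375 sequences used were shared by plates, so cells were identified by plate and bar code together.

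The label's marker, Necab1, held in part. A UMI of Necab1 was found in 33 of 60 cells of cluster 3 (55.0%, 41.6 to 67.9%) and in 23 of 222 cells of clusters 1 and 2 (10.4%). With every cell thinned to 20000 UMIs these shares were 53.3% and 5.41%. The interval takes cells as independent. Before thinning, the share in cluster 3 was 68.4, 66.7 and 47.4% in replicates 1 to 3. A UMI of Tnnt1 was found in 29 of the 60 (48.3%) and in 214 of the 222 (96.4%), or in 31.7% and 94.6% after thinning. Within cluster 3, 20 cells held Necab1 without Tnnt1, 13 held both, 16 held Tnnt1 without Necab1 and 11 held neither. By whichever of Tnnt1, Necab1 and Calb2 (calretinin) had the highest CPM in a cell (counts scaled to the cell's total), 29 cells were anchored by Necab1, 19 by Tnnt1 and 3 by Calb2, and 9 had no anchor. The Necab1-anchored cells were 10 of 19 in replicate 1, 2 of 3 in replicate 2 and 17 of 38 in replicate 3. Read the other way, 29 of the 33 Necab1-anchored cells in the 3 somatosensory clusters lay in cluster 3 (87.9%), 4 in cluster 2 and 0 in cluster 1.

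**Figure D2:**
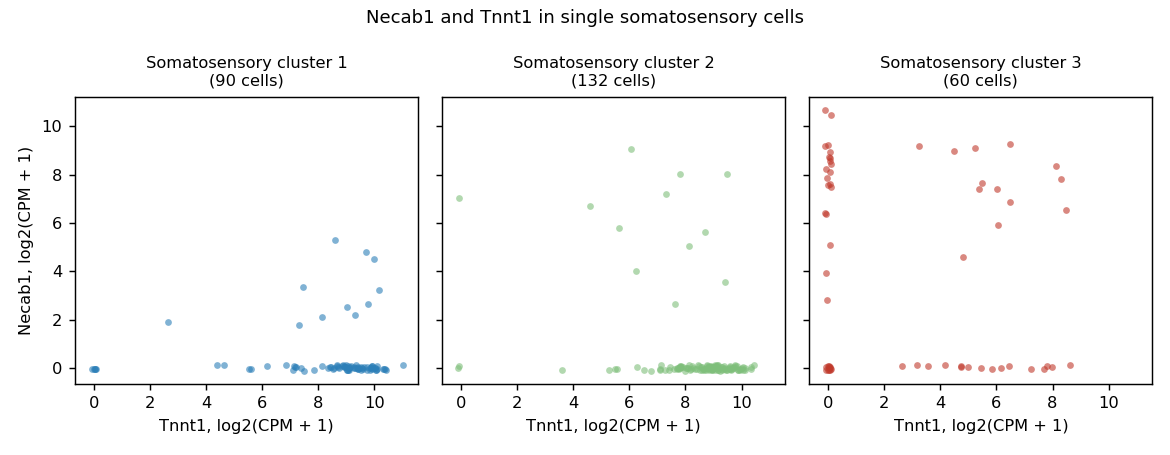
Tnnt1 (x axis) and Necab1 (y axis) in every cell of the 3 somatosensory clusters, as log2(CPM + 1), with a small random offset that separates cells at 0. Clusters 1 and 2 lie along high Tnnt1, while cluster 3 spreads over both axes and has 20 cells with Necab1 and no Tnnt1.

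Several leading RNAs were found in cells with and without Necab1. Calb1 was found in 33 of 33 cells with Necab1 and in 25 of 27 without it, Etv1, an ETS transcription factor, in 32 of 33 and 25 of 27, and Tshz2, a zinc finger homeobox factor, in all cells of both kinds. Pcdh8 was found in 16 of 33 and 12 of 27, and Cbln1 in 23 of 33 and 18 of 27. Col25a1, which encodes a membrane collagen of neurons, was found in 25 of 33 cells with Necab1 against 6 of 27 without, and Tom1l1 in 11 against 3. The median depth was 99669 UMIs with Necab1 and 92135 without. These shares describe cells of 3 animals pooled and were not tested.

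The cells carried the RNA of glutamatergic thalamic neurons. Slc17a6, the vesicular glutamate transporter VGLUT2, was found in 59 of 60 cells and averaged 482 ± 37.9 CPM over the 3 animals, against 543 ± 29.1 in clusters 1 and 2. Slc17a7 (VGLUT1) was found in 31 of 60 cells, against 197 of 222. Gad1 and Gad2, the enzymes that make GABA, were at 0 of 60 cells, with an exact upper limit of 5.96% on the share of cells with a UMI, and 5 of the 6 GABA neuron markers were at 0, with Pvalb as the exception. None of the 6 glutamatergic thalamic markers was at 0, but their summed level was 3342 to 4218 CPM in cluster 3 against 7020 to 7425 CPM, and Rora and Prkcd were its 2 lower members. Microglial markers summed to 143 to 191 CPM against 102 to 164, oligodendrocyte markers to 21.7 to 123 against 34.3 to 55.4, and endothelial and mural markers to 0 to 5.52 against 5.70 to 7.37. The astrocyte list summed to 446 to 585 CPM against 138 to 234. Nearly all of that was Slc1a2, the glutamate transporter GLT-1, at 549, 426 and 577 CPM, while 4 of the 8 astrocyte markers were at 0. In 5 of the 60 cells at least 3 markers of another cell type were detected, and their part in the results was not tested beyond leaving them out.

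To describe what sets the cluster off, counts were summed per animal and compared with clusters 1 and 2 of the same animal in edgeR's quasi-likelihood test with animal as a block. Values in CPM scale a gene's counts to the total of its sum, and differences are log2 folds ± SE with Benjamini-Hochberg adjusted p-values. Only replicates 1 and 3 had the 5 cells required per sum, so the fit had 4 sums and 1 residual degree of freedom. The clusters had been drawn from these same counts, so the folds, errors and calls describe the cluster and are no test that it exists. Each SE was worked back from the fold and the statistic of the test. With 1 residual degree of freedom it borrows variation pooled over genes. It is therefore a weak measure of a gene's own spread between animals. Of 13171 genes tested, 184 passed at 0.05 (1.4%), 98 of them higher (0.744%) and 86 lower (0.653%). A lower level in a sum cannot be told apart from fewer expressing cells. With all 3 animals in the fit, which admits the 3 cells of replicate 2, 33 genes passed (22 higher and 11 lower). The balance of higher and lower calls turned when replicate 1 was left out of that fit (73 higher and 116 lower) and when replicate 3 was (53 and 88), with the median fold of all genes at -0.33 and -0.31. Without the 5 cells that held markers of another type, 77 passed (46 and 31).

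Pcdh8, a protocadherin, stood at 98.3, 57.1 and 89.1 CPM in replicates 1 to 3 against 0, 0 and 0.092 CPM in clusters 1 and 2, a single UMI. The cluster thus held nearly all of this RNA among somatosensory cells, and the pooled counts gave a ratio of 2532 with a counting interval of 453 to 100180. Such counting intervals take UMIs as independent and leave out the spread between cells and animals. Cbln1, a secreted cerebellin that joins neurexins to glutamate receptors of the delta family in the cerebellum, stood at 143, 105 and 192 CPM against 1.59, 0.794 and 6.26 (log2 fold 5.52 ± 0.42, adjusted p = 0.00076). It was found in 41 of 60 cells. Necab1 stood at 239, 119 and 121 CPM against 19.7, 4.46 and 1.01 (4.84 ± 0.61, adjusted p = 0.0048). Calb1 stood at 1651, 2274 and 1881 CPM against 467, 272 and 260 (2.34 ± 0.22, adjusted p = 0.0014). For these 4 genes the lowest animal of cluster 3 lay above the highest of the others. Each passed with 3 animals too, and each passed without the cells of other types.

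Tnnt1 fell from 488, 522 and 479 CPM in clusters 1 and 2 to 76.2, 30.8 and 41.0 CPM (log2 fold -3.10 ± 0.25, adjusted p = 0.00097). The groups did not overlap, and the call stood with 3 animals. Ttn, which encodes titin, the giant spring of muscle, was at 0.69, 0 and 0.885 CPM against 21.7, 31.6 and 40.2 (-5.24 ± 0.73, adjusted p = 0.0069). Tnc, the matrix protein tenascin C, had 1 UMI in cluster 3 against 640, a ratio of 0.00645 with a counting interval of 0.000163 to 0.0361. Syt2, the synaptotagmin of fast-releasing synapses, was at 0 in all 3 animals against 13.3, 8.83 and 30.9 CPM. With a floor of 3 counts over the cluster's UMIs its level was lower by at least 41.7-fold against the pooled cells of clusters 1 and 2. Those counts came almost wholly from cluster 1, where Syt2 averaged 36.4 CPM against 0.129 in cluster 2.

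Pcdh8 and Tnnt1 mark the 2 ends of the comparison, and their promoters are shown for that reason. On GRCm38, RefSeq places the start of Pcdh8 on chromosome 14 and that of Tnnt1 on chromosome 7, both on the minus strand, and the 250 bases upstream of each are printed 5′ to 3′ on that strand (chr14:79771313-79771562 and chr7:4515976-4516225). Capitals mark TATAAA, the core of a TATA box, which was searched on both strands after the sequences had been read.
Pcdh8: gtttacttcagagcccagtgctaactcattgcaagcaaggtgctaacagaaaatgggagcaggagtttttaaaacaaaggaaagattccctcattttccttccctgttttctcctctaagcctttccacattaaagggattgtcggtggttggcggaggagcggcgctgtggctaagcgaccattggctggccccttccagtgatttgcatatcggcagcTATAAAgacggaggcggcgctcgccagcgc
Tnnt1: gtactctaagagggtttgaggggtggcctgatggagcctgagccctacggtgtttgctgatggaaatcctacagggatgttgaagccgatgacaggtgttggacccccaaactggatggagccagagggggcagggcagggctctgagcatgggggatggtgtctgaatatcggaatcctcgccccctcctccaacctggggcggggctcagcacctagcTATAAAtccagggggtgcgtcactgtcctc
Each promoter held 1 match. The 6 letters occurred in 534 of the 9058 tested genes with a promoter of this length in the table (5.90%), in 7 of 70 genes higher in the cluster and in 8 of 66 lower ones. A match is a description of the sequence and not of a site in use.

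The 15 genes named as highest had been chosen by their fold and direction in replicates 1 and 3. Their separation there is therefore no separate support. Of these 15 genes, 9 were higher in all 3 animals without overlap, against 7.08% of all genes tested. The other 6, Prph, Qrfpr, Plcxd3, Tom1l1, Rgs6 and Adgrg6, were at 0 in the 3 cells of replicate 2. Prph, the intermediate filament peripherin, stood at 100 CPM in replicate 1, 0 in replicate 2 and 5.31 in replicate 3. Of its 309 UMIs, 93.5% came from 1 cell, and 3 cells of 60 held any. A single neuron thus carried most of this RNA. Single cells also held 45.7% of the 138 UMIs of Qrfpr, a receptor for the peptide 26RFa, and 47.0% of the 134 UMIs of Adgrg6, an adhesion GPCR. The leading adhesion and calcium genes were spread more evenly, with at most 9.79% of Pcdh8, 10.1% of Cbln1 and 12.8% of Necab1 UMIs in 1 cell.

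Cd59a, an inhibitor of complement lysis, stood at 145, 81.3 and 109 CPM against 5.21, 7.94 and 7.45 (log2 fold 4.30 ± 0.38, adjusted p = 0.0013) and was found in 45 of 60 cells. Cplx2, a complexin that clamps vesicle fusion, stood at 82.1, 48.3 and 31.9 CPM against 1.01, 2.38 and 0.644 (5.96 ± 0.56, adjusted p = 0.0013), and its adjusted p was 0.063 with 3 animals. Pmp22, a myelin protein of peripheral nerve, stood at 19.3, 37.4 and 31.3 CPM against 0.578, 0.0992 and 0, and Pld5 at 7.93, 21.97 and 34.8 CPM against 0, 0.0992 and 0.276. Aldh3b2, an aldehyde dehydrogenase, reached 25.9 to 57.1 CPM and Susd2, a membrane protein with a sushi domain, 17.6 to 32.1 CPM, against at most 1.74 and 3.61. With 3 animals in the fit, 4 of the 15 passed (Pcdh8, Cbln1, Necab1 and Cd59a), and 9 of the 15 passed without the cells of other types.

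All 15 genes named as lowest were lower in each of the 3 animals with no overlap, against 13.5% of all genes tested. They had been chosen by their fold and direction in replicates 1 and 3, and replicate 2 adds only 3 cells. The count describes that choice and is no separate support. Pvalb stood at 8.28, 0 and 6.19 CPM against 58.8, 80.1 and 128 (log2 fold -3.60 ± 0.46, adjusted p = 0.0049). Car4, a membrane-bound carbonic anhydrase, stood at 13.4, 0 and 12.4 CPM against 131, 194 and 152 (-3.45 ± 0.32, adjusted p = 0.0013). The comparison cells are themselves of 2 kinds here. Pvalb averaged 178 CPM in cluster 1 and 4.44 in cluster 2, so cluster 3 was close to cluster 2, while Car4 averaged 263 and 77.0 CPM and lay above cluster 3 in both. Kcnip3, a potassium channel partner and calcium sensor, stood at 2.41, 0 and 8.26 CPM against 106, 95.8 and 73.3, and the muscle-type cytochrome oxidase subunit Cox6a2 at 11.04, 0 and 1.77 against 125, 85.0 and 64.0. Hs3st1, a heparan sulfate sulfotransferase, was found in 1 cell of 60 against 121 of 222. With 3 animals in the fit only Tnnt1 of these 15 passed, and 7 passed without the cells of other types.

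**Figure D3:**
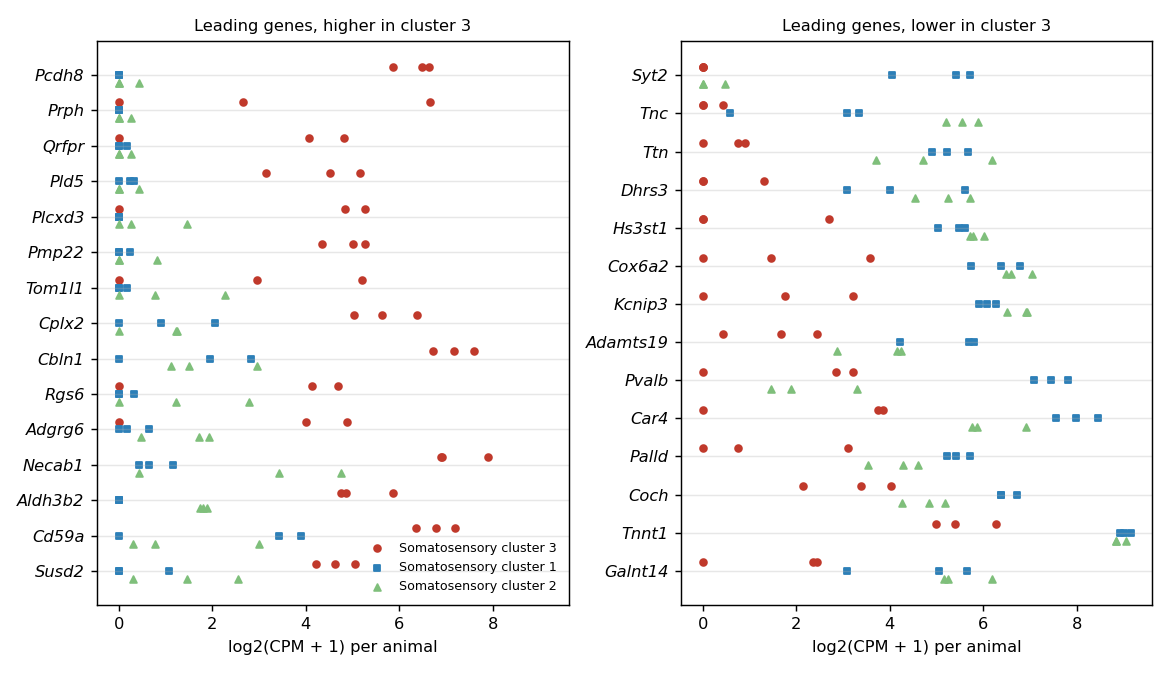
Level of the 15 genes named as highest (left) and 14 of the 15 named as lowest (right) in cluster 3, as log2(CPM + 1), 1 point per animal and cluster. On the left the points of cluster 3 lie to the right of those of clusters 1 and 2, apart from 6 genes that are at 0 in replicate 2; on the right they lie to the left, except that Pvalb and Syt2 are also low in cluster 2.

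Of the 98 genes higher in cluster 3, all 98 had a mean above both cluster 1 and cluster 2, and of the 86 lower ones 84 had a mean below both. These genes had been chosen by their fold against clusters 1 and 2 together in the same cells. The counts therefore describe the calls and are no separate support, and the share over all genes was not counted. Calb1 showed an order among the 3 clusters, at 167 CPM in cluster 1, 491 in cluster 2 and, in the 3 animals, 1651 to 2274 in cluster 3. Scn3b, an auxiliary subunit of sodium channels, averaged 0.731 CPM in cluster 1 and 106 in cluster 2 and stood at 265, 685 and 467 CPM in cluster 3. Its fold of 2.74 ± 0.38 over both passed (adjusted p = 0.0067). Gria1, an AMPA receptor subunit, averaged 19.4 and 107 CPM and stood at 190, 132 and 143 CPM in cluster 3. For these 3 genes cluster 2 lay between the other clusters, and no test of that order was made.

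Among calcium-binding proteins, Necab1 and Calb1 were higher and Necab3 and Pvalb lower, which is 4 of 7 genes tested (median log2 fold 0.89, against -0.05 over all genes). Necab3 stood at 73.1, 28.6 and 58.4 CPM against 212, 215 and 142 (-1.41 ± 0.24, adjusted p = 0.022, and 0.14 with 3 animals). Calb2 stood at 51.4, 0 and 10.6 CPM against 11.9, 9.33 and 1.20 and did not pass (2.56 ± 0.57, adjusted p = 0.068). Of its 185 UMIs in the cluster, 56.2% came from 1 cell.

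Of 21 transcription factors known from thalamus that were tested, 1 was higher and 4 lower (median -0.80). Etv1 stood at 243, 211 and 259 CPM against 38.9, 50.7 and 69.7 (log2 fold 2.26 ± 0.26, adjusted p = 0.0026). The nuclear receptor Rora stood at 1187, 624 and 1062 CPM against 2378, 2087 and 1951 (-0.94 ± 0.12, adjusted p = 0.0052), and its relative Rorb at 103, 37.4 and 55.7 against 233, 233 and 328 (-1.86 ± 0.32, adjusted p = 0.020). Both groups were apart in all 3 animals, but neither call stood with 3 animals in the fit (adjusted p = 0.087 for each). Bcl11a and Id2 were the other lower factors, and Bcl11a stood at 74.7 CPM in replicate 2, above every animal of clusters 1 and 2. Tcf7l2, a factor that defines thalamic neurons, stood at 674, 822 and 676 CPM against 1048, 665 and 671 and did not pass (-0.31 ± 0.18, adjusted p = 0.58). Outside the list, Mef2c stood at 107, 39.5 and 71.7 CPM against 456, 452 and 415 (-2.31 ± 0.21, adjusted p = 0.0013).

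Of 10 sodium channel genes tested, Scn2a and Scn3b were higher and none lower (median 0.00). Of 7 Kv1 subunit genes Kcnab2 and Kcnab3 were lower (median -0.87), of 3 Kv3 genes Kcnc1 was lower (median -0.92), and of 12 Kv2 and Kv4 genes and partners Kcnip3 was lower (median -0.38). Kcnc1, a channel subunit of fast repolarization, stood at 267, 132 and 276 CPM against 482, 522 and 544 (-0.92 ± 0.17, adjusted p = 0.031). Of 12 high-voltage calcium channel genes Cacna1e, the R-type pore, was higher, and of 7 T-type and HCN genes the HCN partner Pex5l was lower. Of 14 AMPA receptor genes Gria1 was higher and Gria3 and Cnih3, an auxiliary subunit, lower. None of 18 leak, M-type and SK channel genes and none of 13 GABA receptor genes passed. Beside these lists and those above and below, 0.744% of all genes tested were higher and 0.653% lower. On simulated counts the fit found 11 of 67 genes changed 2-fold. A list without calls therefore does not show that its genes were unchanged.

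Of 20 vesicle release genes tested, Syt5 and Cplx2 were higher and Syt2 and Cplx1 lower (median 0.12), so the 2 complexins went opposite ways. Cplx1 stood at 789, 721 and 955 CPM against 1534, 2208 and 2058 (-1.03 ± 0.13, adjusted p = 0.0048). Of 19 cadherins, the protocadherins Pcdh8, Pcdh11x, Pcdh17 and Pcdh19 were higher and Pcdh9 lower (median 0.27). Pcdh9 stood at 147, 72.5 and 164 CPM against 517, 576 and 527 (-1.75 ± 0.18, adjusted p = 0.0019). Of 28 axon guidance genes Robo2, a Slit receptor, and Slit1, a Slit ligand, were higher. Of 21 wiring genes Cadm1 was higher and Lsamp and Opcml, both GPI-anchored adhesion proteins, were lower.

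Among signalling genes, 4 of 19 protein kinase C and calcium signalling genes were lower and none higher (median -0.17). Prkcd, the kinase whose RNA is abundant in sensory thalamus, stood at 1369, 1186 and 1686 CPM against 2970.0, 3723 and 3548 (-1.10 ± 0.11, adjusted p = 0.0019, and 0.039 with 3 animals). Pcp4, a calmodulin-binding peptide, stood at 3964, 1505 and 3225 CPM against 7105, 5615 and 6112 (-0.88 ± 0.09, adjusted p = 0.0019, and 0.10 with 3 animals), and Camk4 and Hpca were the other 2. Htr7, a serotonin receptor, was the 1 modulatory receptor gene that passed, at 43.8, 50.5 and 45.1 CPM against 5.35, 9.92 and 11.7 (2.47 ± 0.49, adjusted p = 0.042). In the matrix list Col25a1 and Spon1, a secreted spondin, were higher, 2 of 8 tested. None of 54 nuclear genes of the respiratory chain, none of 7 mitochondrially encoded genes and none of 13 immediate early genes passed in edgeR's test (medians -0.11, -0.09 and -0.67). Of all genes tested, 1.4% passed.

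The next comparison asked whether the genes that describe cluster 3 also separate Necab1 from Tnnt1 cells in animals that had no part in the cluster. Cells of the auditory, motor, prefrontal and visual systems were put in the class of their anchor gene, summed per animal, and the Necab1 class compared with the Tnnt1 class with animal as a block (53 sums over all 3 anchor classes, 33 residual degrees of freedom). Of 12018 genes other than the anchors, 598 passed (4.98%), of which 291 were higher (2.42%) and 307 lower (2.55%) in the Necab1 class. Of the 98 genes higher in cluster 3, 91 were tested here. Of these, 47 passed in the same direction and 0 in the opposite one, and 85 had a fold above 0 (median 0.87, against -0.02 over all genes). Of the 86 lower genes, 83 were tested, 30 passed lower and 0 higher, and 77 had a fold below 0 (median -0.54). The classes were defined by 2 genes that themselves differ in cluster 3, and 29 of its 60 cells were of the Necab1 class.

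Some genes of the cluster, picked as examples, were among the clearest in these other animals. Scn3b averaged 469 ± 215 CPM in 18 Necab1 sums and 170 ± 139 CPM in 17 Tnnt1 sums, and was higher in 17 of 17 pairs of sums (log2 fold 1.54 ± 0.19, adjusted p = 4.1e-07). The 17 pairs came from 16 animals, as 1 animal gave cells to both the auditory and the visual system and was fitted as 2 blocks. Cadm1 averaged 242 ± 104 against 119 ± 59.1 CPM and was also higher in 17 of 17 (1.02 ± 0.12, adjusted p = 4.1e-07). Calb1 averaged 636 ± 257 against 420 ± 182 CPM, higher in 15 of 17 (0.63 ± 0.16, adjusted p = 0.0098), a smaller fold than the 2.34 of the cluster. Prlr, the prolactin receptor, rose by 3.10 ± 0.72 (adjusted p = 0.0054), and its fold in the cluster was 2.26 ± 0.41. On the lower side Car4 averaged 23.5 ± 15.8 against 104 ± 41.3 CPM and was lower in 17 of 17 pairs (-2.38 ± 0.41, adjusted p = 0.00015), as was Prkcd (-1.26 ± 0.23, adjusted p = 0.00035). Pvalb (-2.47 ± 0.62) and Coch (-2.98 ± 0.73), which encodes cochlin, passed in the same direction.

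Others of the leading genes did not pass there. Of the 15 genes named as highest in the cluster, 12 were tested in the other systems, all 12 had a fold above 0, and 3 passed (Cplx2, Plcxd3 and Susd2). Pcdh8 had a fold of 2.84 ± 0.90 and an adjusted p of 0.054. Cbln1, at 0.77 ± 0.81 (adjusted p = 0.73), Cd59a, at 0.21 ± 0.55 (0.91), and Rgs6, at 0.17 ± 0.58 (0.94), had folds within their errors. Tshz2, a called gene of the cluster, had a fold of -0.01 ± 0.16 (0.99). Of the 15 named as lowest, 14 were tested, 13 had a fold below 0 and 3 passed (Pvalb, Car4 and Coch), whereas Cox6a2 stood at 0.03 ± 0.22. In the reverse direction, 33 of 54 nuclear respiratory chain genes were lower in the Necab1 class of the other systems. There the list had a median log2 fold of -0.36, and 2.55% of all genes tested were lower. None of the 54 passed in cluster 3, where the median was -0.11 and 1.4% of all genes tested passed. A list without calls does not show that its genes were unchanged. The difference between these comparisons was not tested.

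**Figure D4:**
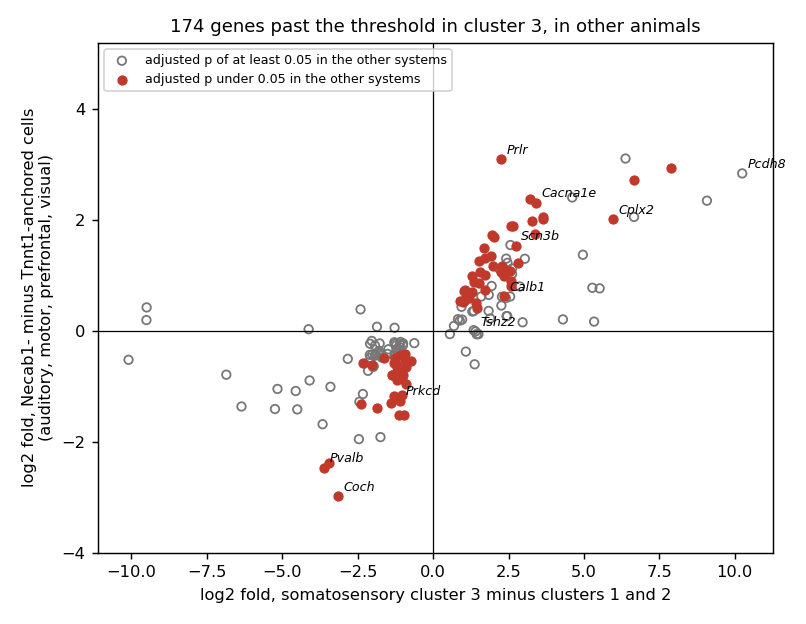
Log2 fold of the 174 tested genes past the threshold in cluster 3 (x axis, cluster 3 minus clusters 1 and 2) against their log2 fold between Necab1- and Tnnt1-anchored cells of the 4 other systems (y axis), with filled points for an adjusted p under 0.05 on the y axis. Most points lie in the lower left and upper right; folds beyond about 5 on the x axis belong to genes near 0 in one group, where the fitted size depends on the prior count.

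Cluster 3 was then set beside the Necab1-rich clusters of the motor and prefrontal systems. In the authors' clustering of all systems together, 56 of its 60 cells (93.3%) lay in the shared cluster 4, as did 146 of the 159 cells of motor cluster 3 (91.8%). That shared cluster held 263 cells, of which 190 were motor, 66 somatosensory, 3 auditory, 2 prefrontal and 2 visual. Over 9466 genes centred on the mean of all clusters, the likeness of cluster 3 to any other cluster was weak. By Pearson's r it was highest for motor cluster 3 (0.162, Spearman's rho 0.030), and by rank for somatosensory cluster 1 (rho 0.167, r 0.111), a description across genes, which are not independent replicates.

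Against motor cluster 3 no gene passed. The fit took 2 sums of cluster 3 (replicates 1 and 3), 5 of motor cluster 3 and 4 of prefrontal cluster 2, with sequencing batch as a covariate. Of 13159 genes, 0 passed in edgeR's test (0.0%), 336 had an unadjusted p under 0.05 (2.55%), and DESeq2 called 18. The fit had little reach. On simulated data of the same shape it recovered 10 of 66 genes changed 4-fold and 0 of 67 changed 2-fold, and batch 2 holds 1 sum of motor cluster 3 (13 cells) beside all of cluster 3. Necab1 stood at 239, 119 and 121 CPM in cluster 3 and at 221 to 469 CPM in motor cluster 3 (log2 fold -0.69 ± 0.41), and Tnnt1 at 30.8 to 76.2 against 45.6 ± 4.89 CPM (-0.16 ± 0.62). The animals overlap for both genes.

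For Calb1, Pcdh8, Cbln1 and Cplx2 the animals of the 2 clusters did not overlap, although none of them passed. They are examples. The animals were also apart for other genes, among them Pmp22, Cd59a, Syt5, Scn3b and Tshz2 (higher) and Mef2c (lower). The share of all genes without overlap was not counted. Calb1 was at 1651 to 2274 CPM in cluster 3 against 864 to 1102 in motor cluster 3 (0.72 ± 0.24). Pcdh8 was at 57.1 to 98.3 CPM against 0 to 38.5 (5.46 ± 1.60) and Cbln1 at 105 to 192 against 25.6 to 87.8 (1.75 ± 1.05). Cplx2 was at 31.9 to 82.1 against 0 to 7.59 (7.46 ± 1.96). These folds are adjusted for sequencing batch and are not ratios of the ranges. In the 1 motor sum of batch 2, Pcdh8 and Cplx2 were at 0, so the size of their folds is poorly set. Within batch 2 alone, against its 1 motor sum, 13 genes passed, Pcdh8, Cplx2, Plcxd3 and Scn3b among them, in a fit that takes the lone sum to vary like the others. With no batch term 3 passed, Prph, Nbl1 and an unnamed gene model, and with no filter on low counts 3 also passed, Malat1 and 2 gene models without a name. These genes were chosen for mention after their values had been seen.

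Against prefrontal cluster 2, 8 of 13159 genes passed (0.0608%), 3 higher (0.0228%) and 5 lower (0.038%) in cluster 3, and 531 had an unadjusted p under 0.05 (4.04%). Tshz2 was at 630, 639 and 589 CPM against 82.4 ± 38.9 (n = 4, log2 fold 2.73 ± 0.41, adjusted p = 0.025), Spon1 at 450, 231 and 407 against 71.9 ± 33.0 (2.501 ± 0.36, adjusted p = 0.023) and Nefm, the middle neurofilament subunit, at 1633, 1114 and 1680 against 489 ± 45.4 (1.74 ± 0.22, adjusted p = 0.0095). Slc17a8, the transporter VGLUT3, was at 0 in every animal of cluster 3 against 62.1 ± 26.1 CPM. With prefrontal cluster 2 pooled at 55.2 CPM and a floor of 3 counts over cluster 3, it was at least 124-fold lower. Htr2c, a serotonin receptor, was at 8.62, 50.5 and 7.67 CPM against 220 ± 74.1 (-4.27 ± 0.68, adjusted p = 0.033), Lsamp at 72.4, 19.8 and 54.3 against 704 ± 351 (-2.98 ± 0.36, adjusted p = 0.0095), Mef2c at 39.5 to 107 against 314 ± 122 (-2.17 ± 0.35) and Scg2, a granin of secretory granules, at 508 to 602 against 1188 ± 171 (-1.51 ± 0.22). The groups did not overlap for any of the 8 genes. They had been chosen by this same fit, and the share of all genes without overlap was not counted. The count of 8 rests on single animals. It fell to 0 without somatosensory replicate 1 or 3, motor replicate 3 or prefrontal replicate 3. It stood at 2 and 3 without motor replicates 2 and 5 and at 15 without prefrontal replicate 2.

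**Figure D5:**
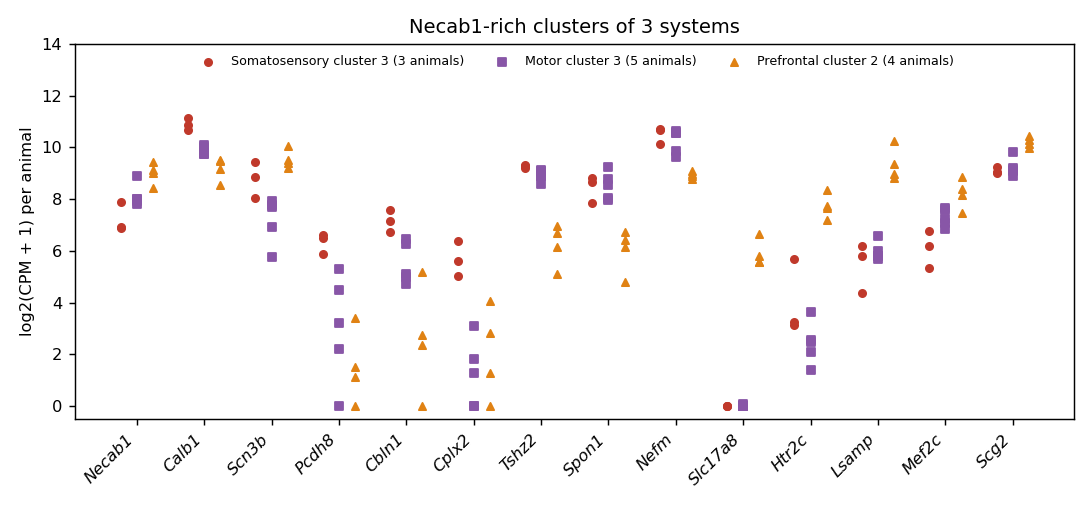
Level of 14 genes, as log2(CPM + 1), in somatosensory cluster 3, motor cluster 3 and prefrontal cluster 2, 1 point per animal, with sums of any number of cells. Calb1, Pcdh8, Cbln1 and Cplx2 are highest in cluster 3, Tshz2, Spon1 and Nefm are lowest in prefrontal cluster 2, and Slc17a8 is present in prefrontal cluster 2 alone apart from a trace in 1 motor sum.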

How the data were processed

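The labels' protocols describe retrogradely labelled neurons picked by hand, spike-in RNAs and 3' libraries with UMIs. The authors deposited 1 table of raw counts (UMIs of 36589 genes and 90 spike-in RNAs in 1972 cells) and a table of cells with plate, animal and cluster. The submitters' processing notes name cutadapt 1.16, Picard 1.12, STAR 2.5.3 and the mm10 build. No source used here gives the gene annotation or the counting rule, and overlapping, antisense and near-identical genes may share UMIs. No doublet caller was run on these hand-picked cells, and the sources used here do not say how the authors treated doublets.

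Counts were summed per animal and cluster (at least 5 cells) and fitted with edgeR 4.0.16 in R 4.3.3 (quasi-likelihood test, TMM scaling, filter on low counts, Benjamini-Hochberg adjustment at 0.05, animal as a block within systems or sequencing batch between them). Pairing came from the animals, which gave cells to both groups. DESeq2 1.42.0 was an alternative, as were other scaling, filters, dispersion, cell minimums and left-out animals. A fit with all 3 animals and one limited to shared cluster 4 were chosen after seeing the data. Exact tests used scipy 1.17.1 in Python 3.11.15, and figures matplotlib 3.10.9.

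The members and lists were chosen with earlier results of these data known. Genes named as highest or lowest are the 15 with the largest fold in each direction against clusters 1 and 2. They had an adjusted p under 0.05, at least 10 CPM on average and the same direction in every animal fitted. Other comparisons ranked up to 8 in each direction without the condition on animals. The text reports only a part of these genes and of the members of 39 gene lists, and single genes were picked as examples. 1 of the genes named as lowest is counted but not reported here. On simulated counts of 12520 genes, the comparison with clusters 1 and 2 found 35 of 66 genes given a 4-fold change. It found 11 of 67 at 2-fold and 1 of 67 at 1.5-fold, and 2 of its 49 calls were false. The comparison of Necab1 with Tnnt1 cells, on 11833 genes, found 50, 30 and 12 at these sizes, and 1 of its 93 calls was false.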

Additional observations from a re-analysis of the deposited data

Results flagged for a closer look

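Over 13 genes in 2 clusters, 26 groups were examined and 5 held an animal apart. Among the 5 animals of motor cluster 3, for each of 4 genes 1 animal stood apart from the rest, at 469 CPM for Necab1, 93.2 CPM for Lsamp, 910.2 CPM for Scg2 and 0.0696 CPM for Slc17a8, the last a single UMI with the other animals at 0. Among the 4 animals of prefrontal cluster 2, 1 stood apart for Slc17a7, at 85.8 CPM. Chance alone can set some of this many groups apart, and how many was not tested.

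For 6 genes every animal of somatosensory cluster 3 differed from clusters 1 and 2 in one direction, while every animal of another system differed the opposite way between Necab1- and Tnnt1-anchored cells. These were 7 cases, 3 of 60 genes examined in the 3 prefrontal animals with both classes and 4 of 58 in the 4 visual animals, with 0 of 54 in auditory and 0 of 60 in motor animals. All animals went in the direction of the cluster for 37 genes in the prefrontal and 21 in the visual system. Of all genes tested there, 31.8% had all prefrontal animals on one side and 17.9% all visual animals. The difference between the comparisons was not tested. Of genes lower in the cluster, Cnih3 had a log2 fold of 0.50 and Cox6a2 of 0.84 in visual animals, and Pex5l had 0.60 in prefrontal animals. Rorb, also lower in the cluster, had 0.55 in prefrontal and 0.67 in visual animals. Of genes higher in the cluster, Col25a1 had -0.99 in visual animals and Tshz2 -1.18 in prefrontal animals.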

How the results depend on the processing

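The comparison with clusters 1 and 2 gave 184 genes, and 193 with RLE scaling. It gave 469 with no filter on low counts, 365 with DESeq2, 312 with 1 common dispersion, 77 without cells with markers of another type, 33 with sums of any size and, leaving out 1 of the 3 animals in turn, 141 to 189 (73 higher and 116 lower without replicate 1, 53 and 88 without replicate 3). Without the replicate block, that is without pairing by animal, it gave 41 (29 higher and 12 lower). With 5 cells required, leaving out an animal leaves 1 pair and no count. Between Necab1- and Tnnt1-anchored cells 598 genes passed, 1000 with DESeq2, 17 in auditory, 8 in motor, 76 in prefrontal and 25 in visual animals alone, and 409 to 632 leaving out 1 animal. Against motor cluster 3 the count of 0 became 3 with no filter, 18 with DESeq2, 3 with no batch term and 13 in batch 2 alone, and stayed at 0 with each animal left out. Against prefrontal cluster 2 the count of 8 became 59, 100, 37 and 100 under those settings, 22 with at least 10 cells per sum, and 0 to 15 with each animal left out. In batch 2 alone each of these clusters has 1 sum, taken to vary like the others. The cause was not tested. In auditory animals alone Gabra5 (-0.34) and Syt17 (-0.50) turned from higher to lower. The share of cells with Tnnt1 moved to 31.7% after thinning, and the likeness to motor cluster 3 to 0.120 with a minimum of 1 CPM and 0.030 by rank. Leaving out 1 animal put the difference in median UMIs between -33271 and 14774, in detected genes between -397.5 and 134.5, in spike-in share between -1.29 and -0.35 percentage points and in mitochondrial share between -0.0288 and 0.396. For single genes and settings, 8782 results kept direction and side of the threshold, 937 lost the call, 132 gained one and 2 reversed. Few animals and, in replicate 2, 3 cells limit the precision.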
